A study of Rattus norvegicus with 50 samples.

Results

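The genes described here make fatty acids in the liver from 2-carbon units and desaturate the product, together with the regulators and the citrate carrier that serve them. They are Slc13a5, Acly, Acss2, Acaca, Fasn, Elovl6, Scd, Me1, Thrsp and Srebf1, 10 genes chosen by symbol, and 9 of them were measured, among 14506 genes in all. Each was read from the probe with the highest mean among probes that carry its symbol alone. Srebf1 has no such probe: its only probe also carries the symbol Pemt, a phospholipid methyltransferase, so it gets no value. Each measured member had 1 probe.

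Liver RNA came from 50 male Sprague Dawley rats, about 3 months of age, on 1 array per animal, in 10 groups of 5. One group was intact sham. The other 9 had a controlled cortical impact (CCI), a mechanical contusion of the exposed brain, and were given saline as vehicle, EPO (erythropoietin) at 2500 IU/kg or anakinra, which blocks the receptor of interleukin-1, at 100 mg/kg. Livers were taken 24 h, 72 h or 7 days after the impact. Punches of the median liver lobe were used, so a value averages over all cells of the punch, and fewer cells of a type cannot be told apart from less RNA per cell. The sham group has no time and no vehicle in its labels and is the same 5 animals in every comparison with sham. The sources used here give neither the drug schedule, nor feeding, nor the hour of collection.

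De novo lipogenesis turns surplus carbohydrate into fat. Citrate, exported from mitochondria or imported from blood, is cleaved to acetyl-CoA, acetyl-CoA is carboxylated to malonyl-CoA, and fatty acid synthase condenses malonyl units into palmitate with NADPH as the reductant, after which elongases lengthen the chain and the desaturase adds a double bond. In liver the transcription factors SREBP-1c and ChREBP raise the genes of the synthesis enzymes and the desaturase with insulin and glucose after feeding, and fasting lowers them. This account does not cover the citrate carrier Slc13a5.

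Promoter sequences are shown for the genes whose levels differed between groups (Scd, Acss2 and Slc13a5) and for Acly, a gene whose groups did not pass and whose level followed those of other members between animals. They are RefSeq windows of build GRCr8, 250 bases before to 50 bases after an annotated start, written 5′ to 3′ on the gene's strand. Each of these windows lies within the annotated span of its gene, so the gene's 5′ end lies further upstream. Capitals mark a GC box (GGGCGG, or CCGCCC on the other strand) or a CCAAT box in either direction (CCAAT if direct, ATTGG if inverted).
Scd, chr1:253231682-253231981, minus strand: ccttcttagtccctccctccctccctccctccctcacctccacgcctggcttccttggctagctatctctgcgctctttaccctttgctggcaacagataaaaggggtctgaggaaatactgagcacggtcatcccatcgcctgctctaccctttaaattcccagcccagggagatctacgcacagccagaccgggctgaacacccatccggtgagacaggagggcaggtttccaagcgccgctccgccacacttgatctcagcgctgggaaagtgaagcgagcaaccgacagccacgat
Acss2, chr3:164464453-164464752, plus strand: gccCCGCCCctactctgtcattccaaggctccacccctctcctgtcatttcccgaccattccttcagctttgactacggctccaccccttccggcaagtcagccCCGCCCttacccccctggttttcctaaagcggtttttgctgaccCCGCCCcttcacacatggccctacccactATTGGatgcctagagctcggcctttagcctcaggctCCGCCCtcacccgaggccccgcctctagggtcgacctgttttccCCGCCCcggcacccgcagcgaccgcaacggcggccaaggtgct
Slc13a5, chr10:57388799-57389098, minus strand: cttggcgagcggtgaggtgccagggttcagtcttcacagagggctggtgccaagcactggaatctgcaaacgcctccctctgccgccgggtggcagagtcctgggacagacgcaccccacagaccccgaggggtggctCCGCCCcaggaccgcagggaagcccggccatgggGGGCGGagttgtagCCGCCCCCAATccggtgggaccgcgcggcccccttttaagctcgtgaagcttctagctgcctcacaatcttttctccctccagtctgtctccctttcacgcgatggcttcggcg
Acly, chr10:85963582-85963881, minus strand: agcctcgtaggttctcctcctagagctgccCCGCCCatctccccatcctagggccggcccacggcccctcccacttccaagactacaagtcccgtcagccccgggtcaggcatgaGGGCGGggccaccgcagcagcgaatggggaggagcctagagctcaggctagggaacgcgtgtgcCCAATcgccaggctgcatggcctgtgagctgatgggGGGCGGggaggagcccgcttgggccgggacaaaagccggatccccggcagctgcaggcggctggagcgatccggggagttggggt
In these windows Acss2 has 5 GC boxes and 1 CCAAT box, which is inverted. Slc13a5 and Acly have 3 GC boxes and 1 CCAAT box each, the latter direct. Scd has none of either, so its window carries no capitals. In Slc13a5 the last GC box directly adjoins the CCAAT box. RefSeq windows were at hand for 7 of the 10 members, all but Fasn, Acaca and Elovl6, and both Srebf1 starts were searched. The GC box occurs in 6 of the 7, against 33.06% of 33469 windows, and the CCAAT box in either direction in 5 of the 7, against 37.49%. A member was counted when any of its windows had a match, while the shares are taken over windows. The sterol response element TCACNCCAC, held by 1.117% of windows, the E-box CACGTG, held by 6.418%, the carbohydrate response element (a pair of CACGTG with any 5 bases between), held by 0.002988%, and the direct repeat of AGGTCA with any 4 bases between, held by 0.005976%, occur in 0 of the 7. Both strands were searched, and every carbohydrate response element also counts as an E-box. A missing match says only that these letters are not in this window.

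All values below are log2 values after robust multi-array averaging (RMA), so a difference of 1 is a doubling of signal, and a level of 1 probe cannot be set against that of another. A difference passed when its p, from limma's fit over all 50 arrays with Benjamini-Hochberg adjustment over the 14506 genes, lay under 0.05 (two-sided). The arrays had medians from 6.66 to 6.89. In 5 of them the standard deviation (SD) over all probes was 2.04 or less, below the rest, against a median of 2.11. At 24 h this was vehicle array 3, at 72 h it was vehicle arrays 2 and 5, and at 7 days it was array 3 of vehicle and of EPO. They are called narrow arrays here, and results that rest on them are given with and without them. Of the 8 hepatocyte markers all were measured, and the mean of the list lay between 12.69 and 12.84 in the 10 groups, so the labelled tissue had the markers of hepatocytes. The adipocyte markers, measured for 7 of 8, had list means between 6.52 and 6.67.

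At 24 h after the impact, 3 of the 9 measured members differed between vehicle animals and sham: Slc13a5 and Acss2 rose and Scd fell, while the enzymes of the chain itself, Acly, Acaca and Fasn, had differences near 0. Over all genes 0.827% passed in this comparison. The median difference of the members was -0.05, and that of all genes was 0.04.

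Slc13a5 encodes the sodium-coupled carrier that brings citrate from blood into the hepatocyte. Its values in the 5 sham arrays were 8.02, 7.90, 8.38, 8.04 and 7.47, and in the vehicle arrays at 24 h 9.97, 9.50, 9.77, 9.47 and 8.74. All 5 vehicle arrays lay above every sham array. The difference was 1.53 (standard error, SE, 0.31, 95% interval 0.91 to 2.15), or 2.88-fold, with an adjusted p of 0.00696 from limma. Without the 5 narrow arrays it was 1.46 with a limma adjusted p of 0.0158. In the injured animals given a drug, EPO arrays at 24 h held 9.33, 9.54, 8.97, 9.83 and 8.84, and anakinra arrays held 9.36, 8.77, 9.88, 8.84 and 8.80. Every one of the 15 injured arrays at 24 h lay above every sham array, and the mean of the 3 injured groups exceeded sham by 1.34 (SE 0.25, limma adjusted p = 0.00220). In that comparison 3 of the 9 members passed, 2 higher and 1 lower, and 1.23% of all genes.

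Acss2 encodes the cytosolic enzyme that makes acetyl-CoA from acetate. Sham arrays held 9.95, 10.26, 10.14, 10.02 and 9.88, and vehicle arrays at 24 h 10.78, 10.24, 11.14, 10.99 and 10.36. Of the vehicle arrays 4 lay above every sham array, and vehicle array 2 lay just under the highest sham array. The difference was 0.65 (SE 0.16, 95% interval 0.33 to 0.97), or 1.57-fold, with a limma adjusted p of 0.0287. This call ended when sham array 1, 3, 4 or 5, or vehicle array 3 or 4, was left out, with a difference between 0.54 and 0.67 and a limma adjusted p of up to 0.154. Without the 5 narrow arrays, of which vehicle array 3 enters this comparison, the difference was 0.54 with a limma adjusted p of 0.108. The mean of the 3 injured groups at 24 h, which exceeded sham by 0.63 (SE 0.13, limma adjusted p = 0.00412), passed whichever array was left out. EPO arrays held 11.27, 10.34, 10.31, 10.16 and 10.94, anakinra arrays held 10.38, 10.64, 11.01, 10.999 and 10.74, and 13 of the 15 injured arrays at 24 h lay above every sham array.

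Scd encodes stearoyl-CoA desaturase, which puts the double bond into palmitate and stearate. Sham arrays held 11.86, 12.57, 12.95, 11.68 and 11.70, and vehicle arrays at 24 h 11.97, 8.62, 10.45, 9.40 and 9.23. Of the vehicle arrays 4 lay below every sham array, and array 1 lay within the sham range. The difference was -2.22 (SE 0.57, 95% interval -3.37 to -1.07), a 4.66-fold lower signal, with a limma adjusted p of 0.0441. The call was close to the threshold: it ended when any array but vehicle array 1 was left out, with a difference between -2.35 and -1.89 and a limma adjusted p of up to 0.150. With all 5 narrow arrays left out, the difference was -2.35 with a limma adjusted p of 0.0672.

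The spread of Scd between injured animals was wide. EPO arrays at 24 h held 11.57, 11.98, 8.63, 10.54 and 9.87, and anakinra arrays held 11.88, 10.32, 11.29, 11.11 and 9.48. In all, 12 of the 15 injured arrays at 24 h lay below every sham array. The mean of the 3 injured groups was lower than sham by -1.73 (SE 0.47, limma adjusted p = 0.0477). That call ended in 14 of 20 repeats with 1 array left out (each sham array, vehicle arrays 2, 4 and 5, EPO arrays 3, 4 and 5, and anakinra arrays 2, 4 and 5), where the difference lay between -1.85 and -1.53 and the limma adjusted p reached 0.230.

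Among the members that did not pass, Me1 had the lowest difference. It encodes malic enzyme, which yields NADPH for the synthase. Sham arrays held 8.74, 9.12, 9.72, 8.75 and 8.90, and vehicle arrays at 24 h 8.30, 8.50, 8.12, 8.67 and 8.57. The vehicle arrays all lay below every sham array, with a difference of -0.61 (SE 0.28, limma adjusted p = 0.288), or -0.54 without the 5 narrow arrays (limma adjusted p = 0.497). Groups without overlap were thus seen for 2 of the 9 members, Slc13a5 above and Me1 below, and for 3.16% of all genes. With the 15 injured arrays at 24 h against sham, Slc13a5 alone among the members had no overlap, as had 0.421% of all genes.

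The remaining members did not pass at 24 h either. Thrsp, whose product is a small acidic protein that responds to thyroid hormone and aids lipogenesis, had a vehicle minus sham difference of -0.34 (SE 0.32). Fasn (fatty acid synthase) had -0.06 (SE 0.32), Acaca (the cytosolic acetyl-CoA carboxylase) -0.05 (SE 0.20), Acly (ATP citrate lyase) -0.04 (SE 0.25) and Elovl6 (the elongase of palmitate) 0.07 (SE 0.36). The 95% intervals of these differences reach from -0.71 to 0.58 for Fasn and from -0.44 to 0.35 for Acaca. For Acly the interval reaches from -0.54 to 0.46, for Thrsp from -0.99 to 0.31 and for Elovl6 from -0.65 to 0.80. A change within these limits, in either direction, is compatible with the values of 5 arrays a group. The intervals do not give the size of change that would have passed after adjustment over all genes. The signs of the Fasn, Acaca, Acly and Elovl6 differences turn with single arrays or the scaling and carry no direction.

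**Figure D1:**
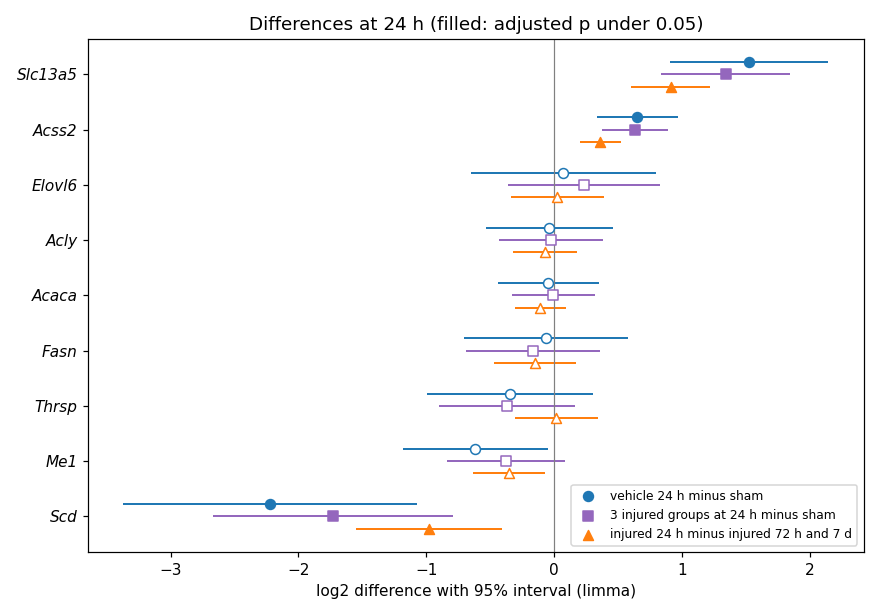
Log2 differences (x axis, with 95% intervals from limma) for the 9 measured genes (y axis) at 24 h: vehicle minus sham (circles), mean of the 3 injured groups minus sham (squares) and injured groups at 24 h minus the injured groups at 72 h and 7 days (triangles). Filled symbols passed at an adjusted p under 0.05: Slc13a5 and Acss2 lie to the right of 0 and Scd to the left in all 3 comparisons, and the other 6 genes have open symbols.

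At the later times no member passed against sham. Vehicle animals differed from sham in 0 of the 9 members at 72 h and 0 at 7 days, where the share over all genes was 0% at both times in limma (1757 and 946 genes had an unadjusted p under 0.05, and 1 and 0 of the members). Scd had a vehicle minus sham difference of -1.35 (SE 0.57, limma adjusted p = 0.396) at 72 h, with 4 of 5 arrays below every sham array, and of -0.11 (SE 0.57) at 7 days. Slc13a5 had differences of 0.44 and 0.16, and Acss2 of 0.15 and 0.13. With the 3 injured groups of a time averaged, 0 of the 9 members passed against sham at 72 h (0.372% of all genes) and 0 at 7 days (2.09%). Scd had a difference of -1.499 at 72 h (SE 0.47, limma adjusted p = 0.152, 12 of 15 arrays below every sham array), and at 7 days its difference was -0.00. For Slc13a5 it was 0.66 at 72 h (SE 0.25, limma adjusted p = 0.283), with 10 of 15 arrays above every sham array, and 0.20 at 7 days. Thrsp had a difference of -0.54 at 7 days (SE 0.26, limma adjusted p = 0.290). Acss2 at 7 days had a difference of 0.40 from sham (SE 0.13, limma adjusted p = 0.0784), with 12 of 15 arrays above every sham array, and it passed under several other settings (0.45 with a limma adjusted p of 0.0337 without the narrow arrays).

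The comparison of times within injured animals does not use the sham group. At 24 h the 15 injured arrays differed from the 30 later ones in Slc13a5, which was higher by 0.91 (SE 0.15, limma adjusted p = 0.000197), in Acss2, higher by 0.36 (SE 0.08, limma adjusted p = 0.00288), and in Scd, lower by -0.98 (SE 0.29, limma adjusted p = 0.0343). Over all genes 4.62% passed here. Erythroid markers were also lower at 24 h, 6 of 6 with a median difference of -1.10, as were 2 of 6 Kupffer cell markers; their part in the member differences was not tested. The Scd call ended without vehicle array 2, 4 or 5, EPO array 3 or 5, or anakinra array 2 or 5 of the 24 h groups, with a difference between -0.94 and -0.82 and a limma adjusted p of up to 0.0922. Me1 had a difference of -0.35 (SE 0.14, limma adjusted p = 0.160), and without the narrow arrays it passed at -0.44 (limma adjusted p = 0.0317). Within the vehicle groups, Slc13a5 fell by 1.37 on the log2 scale from 24 h to 7 days (SE 0.31, limma adjusted p = 0.0360), where 0.248% of all genes passed. All 5 vehicle arrays at 7 days lay below every vehicle array at 24 h. Slc13a5 alone of the 9 members had no overlap there, as had 1.22% of all genes. That call ended without vehicle array 1, 2, 3 or 4 of 24 h or 2, 3 or 4 of 7 days (difference -1.37 to -1.16, limma adjusted p up to 0.103), and was -1.09 with a limma adjusted p of 0.209 without the narrow arrays. Scd had a difference of 2.11 from 24 h to 7 days in vehicle animals (SE 0.57, limma adjusted p = 0.108), and passed when vehicle array 1 of 24 h was left out (2.62, limma adjusted p = 0.0274). Between 24 h and 72 h in vehicle animals 0 of the 9 members passed in limma, with 0.0207% of all genes, and 2 members and 472 of all genes had an unadjusted p under 0.05.

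**Figure D2:**
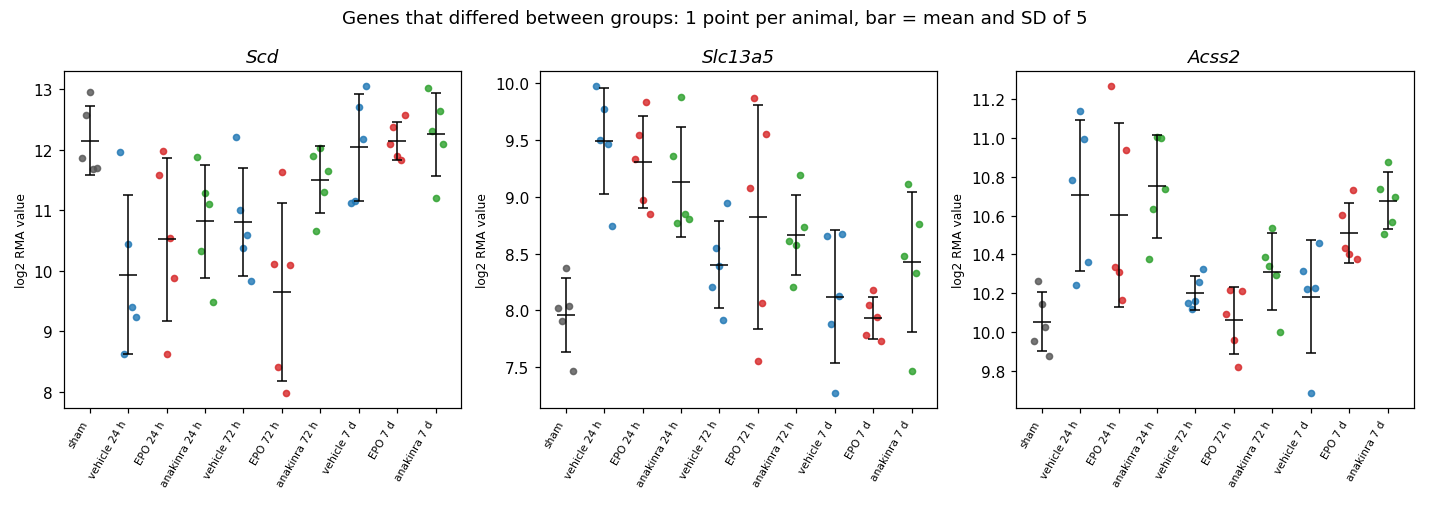
Log2 RMA values (y axes) of Scd, Slc13a5 and Acss2 in the 10 groups (x axes), 1 point per animal, with the mean and SD of the 5 animals as bars. Slc13a5 is highest in the 24 h groups, with means from 9.13 to 9.49 against 7.96 in sham; Scd is low and widely spread at 24 h and in EPO animals at 72 h; Acss2 is lowest in sham (10.05).

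Over all 10 groups, an F test of the group means passed for Slc13a5 (limma adjusted p = 0.000670), Acss2 (0.00118) and Scd (0.00158), and for 5.67% of all genes. Scd means ran from 9.65 in EPO animals at 72 h to 12.25 in anakinra animals at 7 days, with sham at 12.15. Slc13a5 means ran from 7.94 in EPO animals at 7 days to 9.49 in vehicle animals at 24 h, and Acss2 means from 10.05 in sham to 10.75 in anakinra animals at 24 h. Put in order, neighbouring group means of Scd and Slc13a5 never differed by more than the larger of their SDs. For Acss2 a single gap of the 9 did, between EPO animals at 7 days (10.51) and anakinra animals at 72 h (10.31). For the other 6 members the means ran from 9.55 to 10.44 in Fasn, 8.89 to 9.40 in Acaca, 9.92 to 10.59 in Acly, 7.51 to 8.54 in Elovl6, 8.43 to 9.45 in Me1 and 11.04 to 11.91 in Thrsp, with no gap between neighbours beyond the larger SD.

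These genes varied more between animals of 1 group than most genes did. The SD between animals within groups was 0.97 for Scd, 0.61 for Elovl6, 0.55 for Thrsp and 0.54 for Fasn, against a median of 0.17 over all genes. Acss2 had the smallest such SD of the members, 0.26. Scd within EPO animals at 72 h, for instance, was 10.11, 8.41, 11.64, 7.98 and 10.10. The lowest Scd value of the 50 arrays, 7.98, lies in that group.

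**Figure D3:**
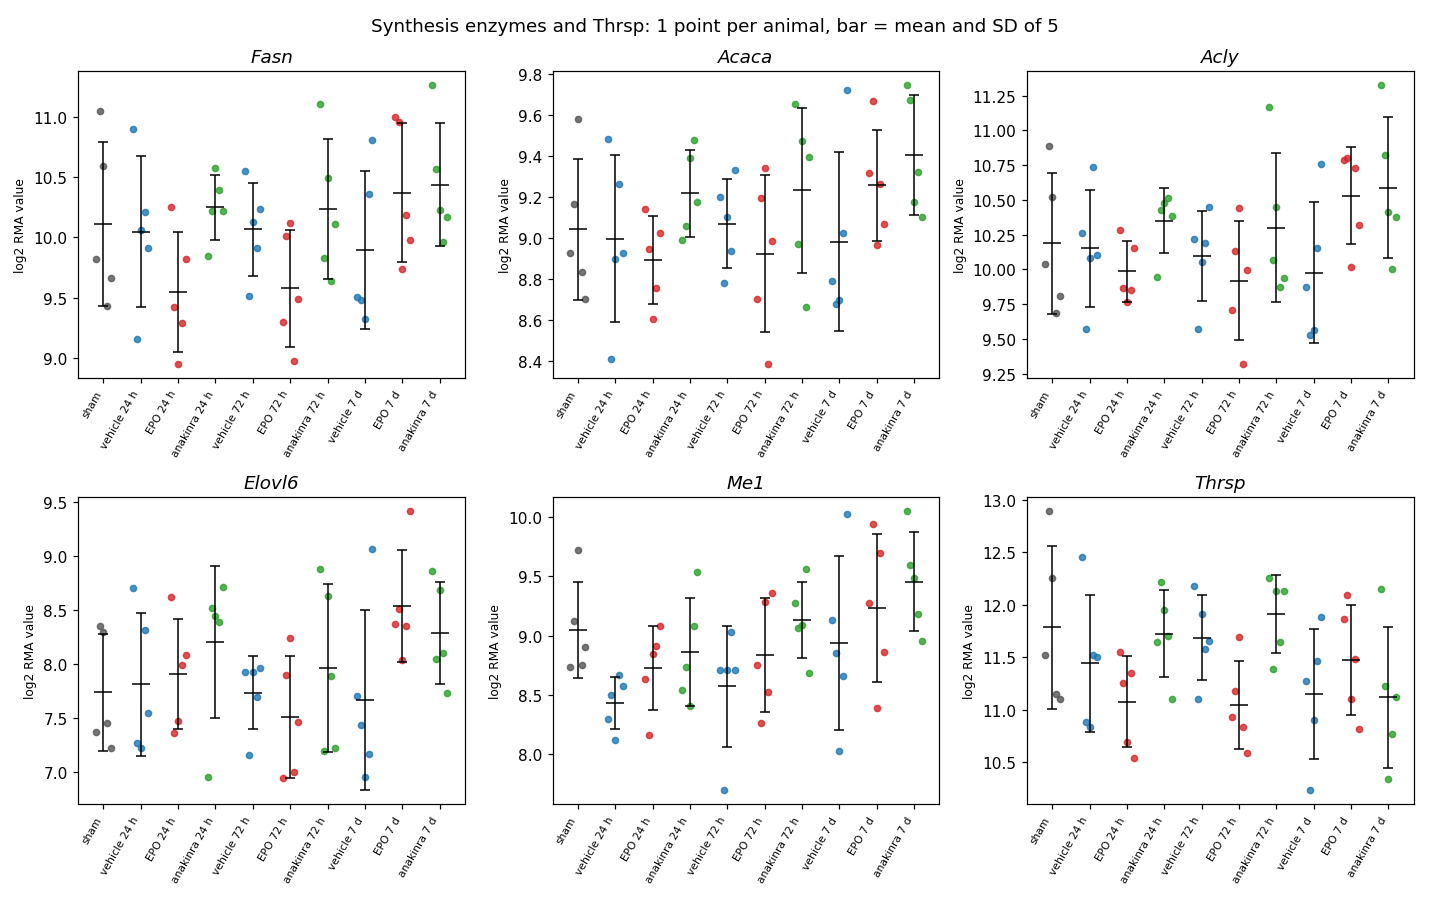
Log2 RMA values (y axes) of Fasn, Acaca, Acly, Elovl6, Me1 and Thrsp in the 10 groups (x axes), 1 point per animal, with the mean and SD of the 5 animals as bars. Fasn, Acaca, Acly and Thrsp overlap between all groups; the 5 Me1 values of vehicle animals at 24 h (8.12 to 8.67) lie below those of sham (8.74 to 9.72) and of anakinra animals at 72 h and 7 days, and Elovl6 in EPO animals at 7 days lies above vehicle animals at 72 h.

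For neither drug did a member pass against vehicle of the same time. With EPO, 0 of 9 members passed at 24 h, 72 h and 7 days in limma, against 0.0276%, 2.72% and 0.365% of all genes, and 0, 1 and 3 members had an unadjusted p under 0.05, as had 1572, 2908 and 721 of the 14506 genes. With anakinra, 0 of 9 passed at each time, against 0%, 0% and 0.0138% of all genes, with 0, 0 and 3 members, and 616, 1546 and 1106 of all genes, at an unadjusted p under 0.05. The EPO and anakinra comparisons of a time share its 5 vehicle arrays. The members' own values ran as follows. Anakinra minus vehicle was above 0 for 8, 9 and 8 of the 9 members at 24 h, 72 h and 7 days, with median differences of 0.22, 0.22 and 0.50, where the median over all genes was -0.02, -0.03 and -0.02. EPO minus vehicle was above 0 for 3, 2 and 8 of the 9, with medians of -0.10, -0.18 and 0.32. The share of all genes above 0 was not counted. Several members varied together between animals, as described below, so the signs of the 9 are not 9 separate results. Of the 5 narrow arrays 4 are vehicle arrays.

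At 72 h, EPO animals had an Scd level of 9.65 (SD 1.47), vehicle animals 10.80 (SD 0.89) and anakinra animals 11.51 (SD 0.55). The EPO minus vehicle difference was -1.16 (SE 0.57, limma adjusted p = 0.246), or -1.41 without the narrow arrays (limma adjusted p = 0.458), and Thrsp and Fasn had -0.64 (SE 0.32) and -0.49 (SE 0.32). EPO minus anakinra at 72 h was -1.86 for Scd (SE 0.57, 95% interval -3.01 to -0.71, limma adjusted p = 0.0833), -0.87 for Thrsp and -0.66 for Fasn. None of the 9 passed there in limma, against 1.94% of all genes, and 3 had an unadjusted p under 0.05, as had 1443 of the 14506 genes. Without EPO array 3, which held 11.64, the Scd difference was -2.36 and passed (limma adjusted p = 0.0144). In EPO animals at 72 h the erythroid list, 6 of 6 measured, had a mean of 9.75 (arrays 8.79 to 10.67) against 7.31 in vehicle animals (6.54 to 8.11), the Kupffer cell list 9.52 (9.44 to 9.68) against 8.86 (8.46 to 9.36), the neutrophil list 6.65 (5.82 to 7.11) against 5.47 (5.27 to 5.67), the liver endothelium list 9.39 (9.27 to 9.53) against 9.06 (8.89 to 9.24), and the hepatocyte list 12.78 against 12.79. Of these markers 6 of 6 erythroid, 6 of 6 Kupffer cell, 4 of 5 neutrophil and 2 of 5 endothelial ones were higher with EPO, and 0 of 8 hepatocyte ones passed in limma. Their part in the member values was not tested.

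At 7 days EPO minus vehicle was 0.87 for Elovl6 (SE 0.36, limma adjusted p = 0.856) and 0.55 for Acly (SE 0.25). The erythroid list was higher in the same comparison, 6 of 6 with a median difference of 2.12, and its part was not tested. Anakinra minus vehicle was 0.50 for Acss2 (SE 0.16, limma adjusted p = 0.399), with 10.74, 10.50, 10.88, 10.57 and 10.70 against 10.32, 10.22, 9.69, 10.22 and 10.46 in vehicle animals, so that all 5 anakinra arrays lay above every vehicle array. Acss2 alone of the 9 members had no overlap there, as had 1.33% of all genes. Without the narrow arrays that difference was 0.37 (limma adjusted p = 0.529). Acly had an anakinra minus vehicle difference of 0.61 and Acaca of 0.42. EPO and anakinra animals at 7 days differed in 0 of 9 members in limma, against 0.441% of all genes, with 0 members and 954 of all genes at an unadjusted p under 0.05. Whether a drug's difference from vehicle changed between times was tested as an interaction, and 0 of 9 members passed in limma for EPO from 24 h to 72 h (0.159% of all genes) and to 7 days (0.0138%), and for anakinra to 72 h (0%) and to 7 days (0%), with 1, 2, 0 and 0 members, and 623, 1304, 168 and 488 of all genes, at an unadjusted p under 0.05.

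Between animals of the same group, several members rose and fell together. Each value was set against its group mean, which removes the differences between groups, and Pearson's r was taken over the 50 arrays for the 36 pairs of the 9 members, with a permutation test within groups (100000 permutations, two-sided) and adjustment over the 36 pairs. In 22 pairs the permutation test of r passed. Fasn and Acly had r = 0.90 (Spearman's rho 0.92), Fasn and Acaca 0.88 (rho 0.89), Acaca and Acly 0.83 (rho 0.87), and Fasn and Thrsp 0.79 (rho 0.77), each with a permutation p of 1e-05, the smallest these permutations can give, for r and for rho. Without the 2 arrays farthest from the median of the first gene, r was 0.88, 0.89, 0.80 and 0.76 in these 4 pairs. The 10 pairs among Fasn, Acaca, Acly, Elovl6 and Thrsp, a set chosen after its values were seen, all passed, with r from 0.49 to 0.90, and from 0.44 to 0.89 without the narrow arrays.

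Slc13a5 passed with 0 of the other 8 members, with r from -0.01 to 0.25. Scd passed with 4 of 8, all of that set: Thrsp (r = 0.55, rho 0.51), Acaca (r = 0.53, rho 0.47), Fasn and Acly. With Acly r was 0.34 and passed (permutation adjusted p = 0.0347), while rho was 0.31 and did not (permutation adjusted p = 0.0659). Scd had r = 0.01 with Me1. Acss2 passed with 4 of 8, also all of the set: Acly (r = 0.53, rho 0.60), Fasn (r = 0.54, rho 0.57), Acaca and Elovl6. It had r = 0.13 with Scd. Me1 also passed with 4 of 8, with the highest value for Acly (r = 0.58, rho 0.56). The arrays share their normalisation and each animal's RNA, so a correlation also holds whatever differs between whole arrays.

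**Figure D4:**
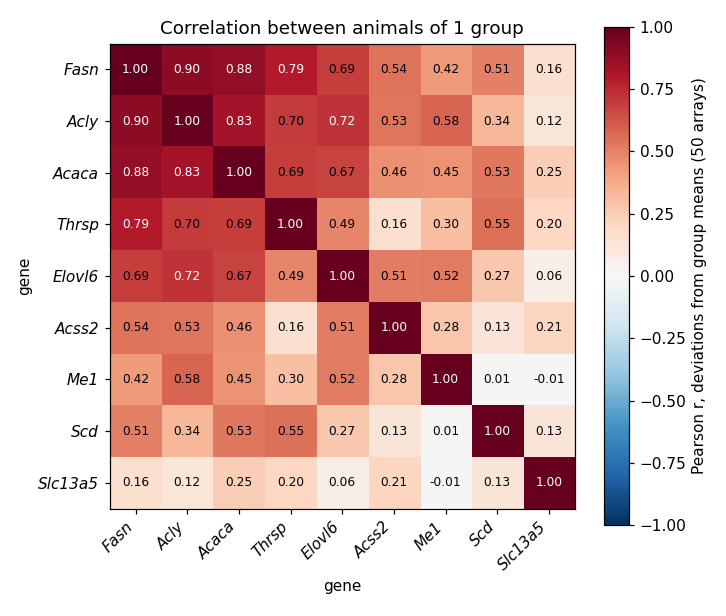
Pearson's r between members over the 50 arrays after each value was set against its group mean (colour and printed value, genes on both axes). Fasn, Acly, Acaca, Thrsp and Elovl6 form a block with r from 0.49 to 0.90, and the Slc13a5 row and column stay between -0.01 and 0.25.

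The genes outside the list whose values over the 50 arrays were most like the mean of the members (each scaled to SD 1) were Pdk1 (Pearson's r = 0.76), a kinase that restrains pyruvate dehydrogenase, Slc2a5 (0.72), the fructose transporter, Gbe1 (0.71), the glycogen branching enzyme, Stra6l (0.70) and Ppa1 (0.68), a pyrophosphatase. The lowest values were those of Pla2g12a (-0.68), Pdzk1ip1 (-0.59) and Rab30 (-0.57). These r values are picked from 14506 genes and are given as a description, without a test. Among the members, the mean was nearest to Acly, Fasn and Acaca (r from 0.91 to 0.93). With Acss2 its r was 0.58, with Scd 0.52 and with Slc13a5 0.12, although each of them is part of it. Most like Scd were Tkfc (0.81), which phosphorylates the fructose product glyceraldehyde, Pklr (0.77), the liver pyruvate kinase, Tkt (0.76), the transketolase of the pentose phosphate pathway, Gbe1 (0.72) and Tfcp2l1 (0.72).

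For Acss2 and Slc13a5 the same was done after their values had been seen. Most like Acss2 were Lss (0.87), Hsd17b7 (0.81), Acat2 (0.81), Cyp51 (0.77) and Fdft1 (0.75), all genes with enzymes of sterol synthesis. Most like Slc13a5 were Prkar2a (0.76), C4bpa (0.74), Pid1 (0.74), Orm1 (0.73), the acute phase protein orosomucoid, and Vamp7 (0.73). None of the 5 genes nearest to Acss2 was among the 5 nearest to Scd or Slc13a5. Within groups, where the differences between groups are removed, r was 0.72 for Acss2 and Lss, 0.69 for Scd and Tkfc, and 0.65 for Slc13a5 and Orm1. With the other genes named for Slc13a5 it was 0.60 (Prkar2a), 0.55 (Pid1), 0.52 (Vamp7) and 0.43 (C4bpa).

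**Figure D5:**
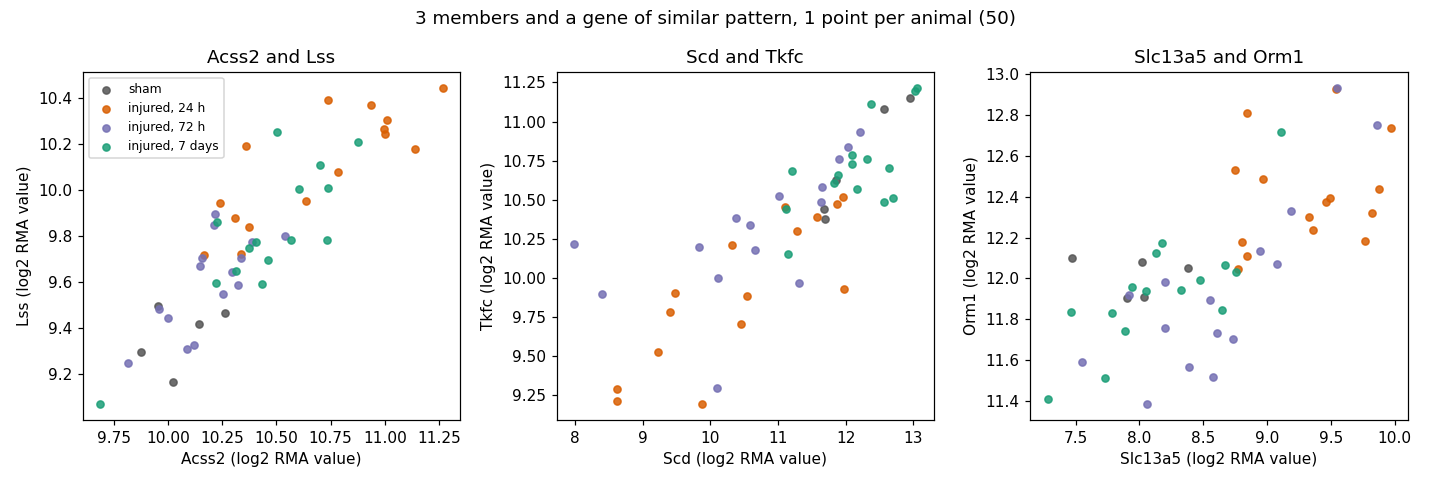
Log2 RMA values of a member (x axes) and of a gene outside the list with a similar pattern (y axes), 1 point per animal, coloured by sham and by time after the impact. Over the 50 arrays r is 0.87 for Acss2 and Lss, 0.81 for Scd and Tkfc and 0.73 for Slc13a5 and Orm1. Lss and Tkfc are the genes nearest to their members, while Prkar2a is nearer to Slc13a5 than Orm1 is. Many animals at 24 h lie to the upper right in the panels of Acss2 and Slc13a5, where some later animals lie too. In the panel of Scd many animals at 24 h lie to the lower left.

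Genes that work beside the members were counted by list in vehicle animals at 24 h against sham (0.827% of all genes passed). Of 31 lipogenic partners measured, Fads3, a member of the fatty acid desaturase family, rose by 0.54, and Elovl5, an elongase of polyunsaturated chains, and Plin2, which coats lipid droplets, fell by 0.42 and 0.83, with a list median of -0.00. Of 10 genes of NADPH supply 0 passed in limma. Of 9 genes of the SREBP machinery Srebf2, the sterol-regulated transcription factor, rose by 0.60. Of 18 genes of cholesterol synthesis and uptake 4 rose, Sqle by 1.14, Idi1 by 1.01, Hsd17b7 by 0.97 and Lss by 0.76, and the list median was 0.43. Of 22 genes of glucose use and insulin response 3 fell: Gckr, the glucokinase regulator, by 0.47, Pklr by 0.90 and Tkfc by 0.99. Of 24 genes of fatty acid oxidation and ketogenesis 0 passed in limma. With only the groups compared, Srebf2 no longer passed (limma adjusted p = 0.0546), nor did Fads3, Elovl5, Plin2, Pklr and Tkfc (limma adjusted p from 0.0539 to 0.0873). Without the narrow arrays, Fads3 (0.45), Plin2 (-0.72) and Pklr (-0.96) did not pass either (limma adjusted p from 0.0763 to 0.0838). Some of these calls ended when 1 array was left out. The Idi1 call ended without any array but vehicle 1 (0.88 to 1.12, limma adjusted p up to 0.132). Pklr no longer passed without sham 2, 3 or 4 or vehicle 2, 3, 4 or 5 (-0.96 to -0.76, p up to 0.160), and Plin2 without sham 2, 3 or 4 or vehicle 3 or 5 (-0.83 to -0.70, p up to 0.115). The same held for Elovl5 when sham 2, 3 or 4 or vehicle 2 or 3 was dropped (-0.43 to -0.40, p up to 0.0820), and for Fads3 when sham 5 or vehicle 3 was (0.45 to 0.48, p up to 0.0777). Tkfc rested on sham 2 and 3 and vehicle 2 (-0.90 to -0.85 without 1 of them, p up to 0.0728), and Sqle on sham 3 and vehicle 4 (1.05 to 1.06, p up to 0.0550).

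Clock genes were counted because the hour of collection is not given. Of 15 measured, Dbp rose by 1.58, Per3 by 1.13 and Tef by 0.64, and Bmal1 fell by 0.70 in vehicle animals at 24 h against sham. Dbp, Per3 and Tef passed whichever array was left out, and the Bmal1 call ended without vehicle array 2, 3 or 5 or any sham array (-0.72 to -0.54, limma adjusted p up to 0.102) and with only the groups compared (limma adjusted p = 0.0769). Of the cell type markers, 0 passed in that comparison in limma: 8 of hepatocytes, 7 of adipocytes, 6 each of Kupffer cells, erythroid cells and stellate cells, 5 each of liver endothelium, pancreas and neutrophils, and 4 of cholangiocytes. The part of the clock genes in the Scd, Slc13a5 and Acss2 differences was not tested.

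The same lists were counted for injured animals at 24 h against injured animals later (4.62% of all genes passed). Of the 18 genes of cholesterol synthesis and uptake 13 were higher at 24 h, among them Sqle by 0.84, Idi1 by 0.75, Hsd17b7 by 0.51 and Lss by 0.40, with a list median of 0.34 against 0.01 over all genes. Of the lipogenic partners 2 were higher, among them Cidec (0.35), a lipid droplet protein, and 4 were lower, among them Pnpla3 (-0.38), Scd2 (-0.32), a second desaturase gene, and Fads2 (-0.30), the delta-6 desaturase. Of the 10 genes of NADPH supply 3 were lower: Tkt (-0.33), Me2 (-0.28) and Mthfd1 (-0.21). Tkfc (-0.59), Pklr (-0.55) and Gckr (-0.21) were lower and Pfkfb1 (0.42) was higher among the 22 genes of glucose use and insulin response. Of the 24 genes of fatty acid oxidation 6 were higher, among them Cpt1a (0.57), the carnitine transferase that admits fatty acids to mitochondria, Eci1 (0.34), Cpt2 (0.31) and Hadhb (0.27). Among clock genes Tef (0.35), Dbp (0.82) and Per3 (0.51) were higher and Npas2 (-0.70) was lower.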

How the data were processed

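The platform was the Affymetrix Rat Gene 1.0 ST Array, with liver RNA of 50 rats. The authors deposited log2 values made by RMA (robust multi-array averaging) with oligo, per the submitters' processing notes, with no versions; the labels name a Cy3 dye. Background correction, quantile normalisation and summary per probe therefore precede these values, and no counts or detection calls were used here. Of 29214 probes, 15310 carry 1 symbol in the platform annotation, 323 several and 13581 none. A symbol's highest-mean probe stands for it, with no filter on low values, which left 14506 genes. The number of arrays limits the precision.

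Groups came from the labels. Their replicate numbers pair nothing by the labels, and nothing there describes each sample beyond 1 animal per array. Limma 3.58.1 in R 4.3.3 (lmFit, contrasts, eBayes) was fitted with 1 mean per group on all 50 arrays (40 residual degrees of freedom), with Benjamini-Hochberg adjustment over all genes and a threshold of 0.05; it was tested on simulated data. Tests over list members alone were not made. Members, gene lists and comparisons were chosen with earlier results of these data known. Named were all members, in each list up to 4 of the genes that passed, by smallest p, and the genes most like the mean of the measured members and most like Scd; likeness to Acss2 and Slc13a5 was added after their values were seen. The alternatives were array weights, eBayes with trend and robust options, only the groups compared, a replicate block, median-centring, a further quantile normalisation, no narrow arrays, genes above the median mean, the mean of all probes, and each array left out.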

Additional observations from a re-analysis of the deposited data

Results flagged for a closer look

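In 3 of 90 sets of 5 values (9 members in 10 groups) an array stood apart from the rest of its group by Dixon's criterion, which chance meets in about 1 set in 20. In anakinra animals at 24 h, array 1 was the lowest for Acly, at 9.94 against 10.39 to 10.52 in the other 4, and for Elovl6, at 6.96 against 8.39 to 8.72. In vehicle animals at 72 h, array 2, a narrow array, was the lowest for Me1, at 7.70 against 8.71 to 9.03.

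Members whose level in injured animals differed between times, by limma's test of that difference, were Slc13a5, with 7 days minus 24 h of -1.37 in vehicle animals and 24 h minus the later times of 0.91 over the injured groups, Acss2, with 24 h minus the later times of 0.36, and Scd, with -0.98.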

How the results depend on the processing

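Against sham at 24 h, Slc13a5 passed under every alternative run, for vehicle animals and for the mean of the injured groups, and Acss2 passed under every one for the mean. The calls of Scd and Acss2 in vehicle animals did not: Scd was lost with trend and robust options (limma adjusted p = 0.0700) and with only the groups compared (0.0763), and Acss2 with array weights (0.0659) and with only the groups compared (0.105). For the injured mean at 24 h, Scd was lost with trend and robust options (0.0756), repeated quantile normalisation (0.0540) and only the groups compared (0.0796), and for injured 24 h minus later with trend and robust options (0.0521). Slc13a5 for vehicle at 7 days minus 24 h was lost with array weights (0.0744) and with only the groups compared (0.153). With array weights Scd passed in that comparison (2.50, limma adjusted p = 0.0312). Me1 passed with them for injured 24 h minus later (-0.42, limma adjusted p = 0.0265). Of the 9 members, 1 passed for vehicle minus sham at 24 h without the narrow arrays and with only the groups compared, and 1 to 3 when 1 array was left out. For vehicle at 7 days minus 24 h, 0 passed without the narrow arrays and with only the groups compared, and 0 to 1 when 1 array was left out. For the injured mean minus sham, 1 passed at 72 h with array weights (Scd, limma adjusted p = 0.0477), and 1 at 7 days (Acss2) with array weights, repeated quantile normalisation, no narrow arrays, genes above the median mean, or only the groups compared. For EPO minus anakinra at 72 h, 0 to 1 passed when 1 array was left out. Signs that turned were those of differences near 0: Elovl6 vehicle minus sham at 24 h was -0.020 with array weights, Acaca was 0.033 and Acly 0.026 after repeated quantile normalisation, and with 1 array left out Elovl6 ran from -0.15 to 0.23, Fasn from -0.27 to 0.17, Acaca from -0.17 to 0.10, Acly from -0.18 to 0.14, and Scd at 7 days from -0.37 to 0.12. The causes were not tested, beyond the smaller number of arrays where arrays were left out.

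Whether the replicate numbers pair the animals was described and not tested. Same-numbered arrays of different groups had deviations from their group means that correlated with a mean r of 0.01 (-0.58 to 0.72 over 225 pairs). For differently numbered arrays the mean r was -0.00. Of the 50 arrays 15 correlated best with an array of their own number, and the number that chance would give was not worked out. With the replicate number as a block, the number of members that passed was the main one in all comparisons, with 3 for vehicle minus sham at 24 h, and among the genes named Pklr (limma adjusted p = 0.0522) and Lpl (0.0567) no longer passed.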

Other observations

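Outside the comparisons of the members, some genes of the companion lists changed with EPO or against sham at the later times. Me2, the mitochondrial malic enzyme, rose in EPO animals at 72 h by 0.72 against vehicle (SE 0.15, limma adjusted p = 0.00133, or 0.0913 with only the groups compared), while the cytosolic Me1 had a difference of 0.26 (SE 0.28). Lpl, lipoprotein lipase, had 0.47 there (limma adjusted p = 0.0486), a call lost when vehicle 1, 2, 3 or 5, or EPO 2, 3 or 4, was dropped (0.36 to 0.51, limma adjusted p up to 0.191) and, with the narrow arrays left out, at 0.40 (limma adjusted p = 0.303). In the same comparison 6 of 6 erythroid, 6 of 6 Kupffer cell, 4 of 5 neutrophil and 2 of 5 liver endothelium markers rose, and their part in the Me2 and Lpl differences was not tested.

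At 7 days the injured groups together exceeded sham in Fads1, the delta-5 desaturase, by 0.38 (limma adjusted p = 0.0116), in Srebf2 by 0.42 (limma adjusted p = 0.0160) and in Lss by 0.44 (limma adjusted p = 0.0264), and were lower in Cidec by -0.50 (limma adjusted p = 0.0247). These calls ended when 1 sham array was left out: Fads1 without sham 2 or 3 (p up to 0.0707), Srebf2 without sham 3 (0.0999), Lss without sham 2, 3, 4 or 5 (up to 0.0816) and Cidec without sham 1, 2 or 3 (up to 0.145). Pfkfb1 was lower in EPO than in vehicle animals at 7 days by -0.87 (limma adjusted p = 0.0400), a call lost when vehicle 1, 2, 3 or 5, or EPO 1, 3, 4 or 5, was dropped (-0.90 to -0.74, limma adjusted p up to 0.177). With the narrow arrays left out it was lost as well, at -0.78 (limma adjusted p = 0.185). The erythroid markers rose with EPO at 7 days, 6 of 6 with a median difference of 2.12, and their part in the Pfkfb1 difference was not tested. Pfkfb1 was also lower in the injured groups together, which include EPO animals, than in sham. The difference was -0.85 at 72 h (limma adjusted p = 0.00773) and -0.90 at 7 days (limma adjusted p = 0.00408). Angptl4, of the list of fatty acid oxidation and ketogenesis, was lower there too, by -1.31 and -1.05 (limma adjusted p = 0.00340 and 0.0177).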
